A study of Mus musculus with 68 samples.

Results

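The collagens and laminins are the structural genes of the extracellular matrix, and 51 of the 21948 genes in the deposited table of mouse pharyngeal arch RNA belonged to them. They were taken by gene symbol alone, as every collagen alpha chain gene (40) and every laminin alpha, beta or gamma chain gene (11), with symbols assigned from the Ensembl identifiers. Of the 51, 48 reached at least 1 CPM (the depth-scaled read level of the table) in at least 3 libraries and were tested, and Col4a4, Col20a1 and Col28a1 did not. Another 8 members, Col4a3, Col5a3, Col7a1, Col11a2, Col17a1, Col19a1, Lama3 and Lamc3, averaged under 1 CPM although they passed. Of 55 annotated protein-coding mouse genes whose symbols have these forms, Col6a4, Col6a5, Col6a6 and Col10a1 had no line in the table and are not analysed here.

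Collagens are assembled from triplets of alpha chains. The fibrillar collagens polymerise into the cables of connective tissue, fibril-associated collagens decorate those cables, and collagen IV forms the sheet-like network of basement membranes. Laminins are heterotrimers of an alpha, a beta and a gamma chain, and they polymerise under epithelia and around muscle and vessels. In the arches, basement membranes line the surface ectoderm and the endodermal pouches, while the neural crest mesenchyme between them lays down the interstitial collagens.

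The libraries were made from PA1 (pharyngeal arch 1, the source of the jaws) and PA2 (pharyngeal arch 2, the source of the hyoid and stapes) of mouse embryos of the CBA/Ca/J x C57BL/10 strain, labelled either wildtype or Hoxa2-/- and collected at E9.0, E9.5, E10.0 or E10.5. Hoxa2 is a homeobox gene that is active in PA2 and not in PA1. The 16 groups of arch, label and stage held 3 to 5 libraries each, 68 in all (34 of them wildtype), and 33 of the 35 embryos were sampled for both arches. Whole arches were dissected by hand and contain mesenchyme, epithelium, vessels, blood and nerve, so fewer cells of a type and less RNA per cell cannot be told apart in any value below.

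Reads recovered from the table numbered 8912251 to 20619153 per library, so that 3 reads were worth 0.14 to 0.328 CPM. Hoxa2 matched the arch labels, with 0 to 0.926 CPM in wildtype PA1 and 20.2 to 63.3 CPM in wildtype PA2. It was not lower under the Hoxa2-/- label, where PA2 libraries held 16.8 to 147 CPM, and those libraries are therefore called by their label throughout. The libraries also fell into groups that the labels do not name: Ski, chosen after its values were seen, ran from 26.3 to 108 CPM in the 24 wildtype libraries of every stage but E10.0, against 9.28 to 22.8 CPM in the 34 libraries labelled Hoxa2-/- and 9.52 to 15.5 CPM in the 10 wildtype libraries of E10.0. Outside E10.0 the label and this division cannot be told apart, whereas comparisons of arches or of E10.5 with E9.0 within a label lie on a single side of it. Red cell or yolk sac markers exceeded 5 times the median of their own group in 7 libraries, and each count below was repeated without them.

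Of the members, the multiplexin Col18a1 (source of endostatin) had the highest mean level per length of merged annotated exons over the 68 libraries, 74.9 CPM per kb of exon. It was followed by the fibrillar Col3a1 at 48.5 CPM per kb, Col2a1 (the cartilage collagen) at 33.5 CPM per kb, the basement membrane chain Col4a1 at 31.5 CPM per kb and Col9a1 at 27.3 CPM per kb. The laminin genes were led by Lamb1 at 15 CPM per kb and Lamc1, the gamma chain of most laminins, at 13.7 CPM per kb. The type I chains Col1a2 and Col1a1, the main collagen of later bone and skin, averaged 11 and 9.31 CPM per kb. Both means were raised by a single library, PA1 replicate 3 of the Hoxa2-/- label at E9.5. Col1a1 stood at 1822 CPM in that library, and the next highest library held 347 CPM. Summed over all members, the level ran from 1340 to 8623 CPM per library with a median of 2939 CPM, and the highest sum was in the same library. The members varied more between replicates than most genes: their median within-group standard deviation was 0.34 on the log2(CPM + 1) scale, against 0.21 for all genes tested, and Col1a1 had the largest, 1.3. The library at 1822 CPM is included in that value.

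More members passed the test in each contrast of E10.5 with E9.0 (16 to 22) than in any contrast of arches or labels (at most 15). Differences were tested with limma on log2(CPM + 1), with Benjamini-Hochberg adjustment over all 18428 genes tested and a threshold of 0.05, and every log2 value below is a difference on that scale, which understates changes of low genes. The collagen VIII chain Col8a2, the fibrillar Col3a1, fibril-associated Col9a1 and laminin alpha 2 rose in both arches under both labels, while the paired collagen IV chains Col4a5 and Col4a6, laminin alpha 5 and laminin gamma 1 had lower means at E10.5 in all 4 contrasts. In wildtype PA1 18 members rose and 4 fell, where 42.5% of all genes tested were called. In wildtype PA2 16 rose and 6 fell against 36.9% of all genes. Under the Hoxa2-/- label 10 rose and 6 fell in PA1 (31.2% of all genes), and 11 rose and 6 fell in PA2 (30.9% of all genes). The called shares of members, 45.8%, 45.8%, 33.3% and 35.4% in the same order, were close to these backgrounds, so a high number of stage changes was not particular to the family. The members' median log2 change was 0.03, 0.12, -0.02 and 0.13, beside medians of 0.002, -0.015, -0.017 and 0.012 over all genes.

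Col8a2 had the largest rise. It encodes the second chain of collagen VIII, a short-chain collagen that forms hexagonal lattices in the cornea and around vessels. The RefSeq promoter of Col8a2 (Ensembl gene ENSMUSG00000056174) and that of Col3a1 (ENSMUSG00000026043) are shown because these genes led the rise. Each printed run (build GRCm38.p6) ends just before the annotated first exon and reads in the direction of transcription. The Col8a2 run lies at chr4:126286544-126286792 (plus strand) and the Col3a1 run at chr1:45311288-45311537 (plus strand). Capitals mark the letters GGGCGG (the core of the GC box), and likewise the TATA element TATAAA. They also mark CCAAT, and each motif was sought on both strands.
Col8a2: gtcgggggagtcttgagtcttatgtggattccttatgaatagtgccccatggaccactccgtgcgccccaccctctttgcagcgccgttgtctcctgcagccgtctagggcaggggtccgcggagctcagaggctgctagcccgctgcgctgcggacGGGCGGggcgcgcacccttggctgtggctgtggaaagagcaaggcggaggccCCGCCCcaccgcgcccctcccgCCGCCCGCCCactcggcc
Col3a1: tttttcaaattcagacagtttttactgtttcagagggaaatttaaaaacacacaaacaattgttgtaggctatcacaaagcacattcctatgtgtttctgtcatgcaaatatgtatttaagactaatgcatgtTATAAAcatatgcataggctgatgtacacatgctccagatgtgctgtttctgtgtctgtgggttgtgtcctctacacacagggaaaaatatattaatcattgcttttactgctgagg
The Col8a2 run held 4 matches to GGGCGG on either strand, of which a pair overlapped, and 70% of its 250 bases were G or C. The Col3a1 run held 1 TATAAA, 117 to 112 bases before the start, and its G and C content was 35.2%. Over 32851 mouse promoters of the same length in that table, 12.4% held TATAAA, 33.8% held CCAAT and 32.7% held GGGCGG. The 40 promoters found for 36 of the members held them in 10%, 32.5% and 52.5% of cases. These are letter matches and not tested sites.

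In wildtype PA1, Col8a2 was at 1.72, 0.651, 0.615, 4.14 and 1.13 CPM in the 5 libraries of E9.0 and at 44.1, 44.3 and 40.3 CPM in the 3 of E10.5. In wildtype PA2 it went from 0.412, 0.802, 0.828 and 0.704 CPM to 23.9, 42.8 and 27 CPM. Under the Hoxa2-/- label it read 0.153, 1.66, 0.398 and 1.14 CPM at E9.0 and 47.7, 31.9 and 23.8 CPM at E10.5 in PA1. Every E10.5 library lay above every E9.0 library, and the ratio of mean CPM was 26 in wildtype PA1 and 45.5 in wildtype PA2. The log2 changes were 4.19 ± 0.47 (SE, adjusted p = 1.3e-10) and 4.22 ± 0.49 (adjusted p = 4.8e-10) by limma, with 4.29 and 3.98 in PA1 and PA2 under the label. Its partner Col8a1, which encodes the first chain, was not called higher in any of the 4 contrasts. Col8a1 fell in PA2 under both labels, by 0.97 (adjusted p = 0.035) and 1.69 (adjusted p = 0.00033), and the wildtype call was lost in 4 of 7 fits that left out a library.

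**Figure D1:**
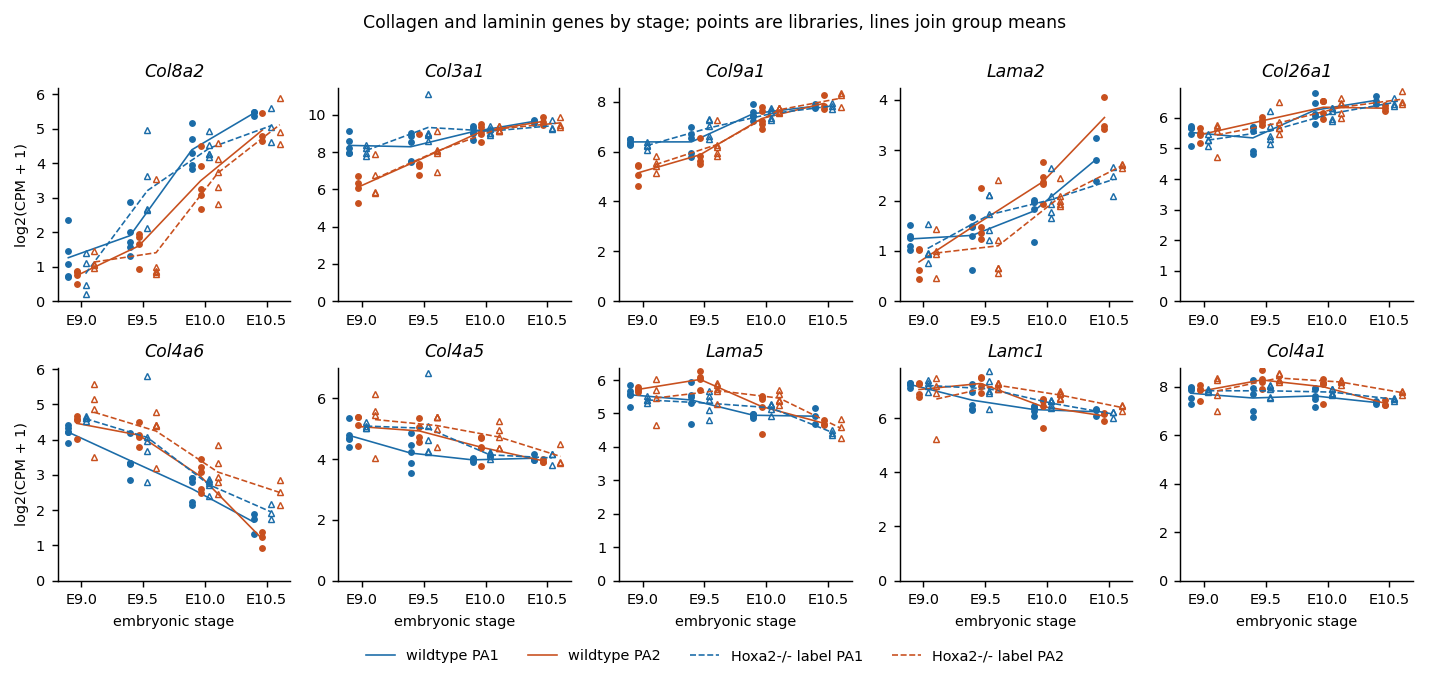
Levels of 10 collagen and laminin genes as log2(CPM + 1) against stage (E9.0 to E10.5), with each library a point (filled circles wildtype, open triangles Hoxa2-/- label, blue PA1, orange PA2) and lines through group means. Col8a2, Col3a1, Col9a1, Lama2 and Col26a1 climb in both arches, and Col4a6 declines most of the genes drawn.

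Among the fibrillar collagens, Col3a1, Col11a1 and Col27a1 rose in all 4 contrasts. Col3a1, a collagen of distensible tissues, moved from 384, 292, 243, 560 and 244 CPM to 813, 836 and 759 CPM in wildtype PA1. In wildtype PA2 it moved from 81.2, 37.9, 66.7 and 103 CPM to 707, 936 and 772 CPM, so the arches overlapped at E10.5 and not at E9.0. The log2 change was 1.29 ± 0.41 in wildtype PA1 (adjusted p = 0.0091) and 3.54 ± 0.43 in wildtype PA2 (limma adjusted p = 2e-09), and no library of E9.0 reached the E10.5 range in either arch. The level of Col3a1 per kb went from a median of 2.04 times that of Col1a2 to 7.85 times in wildtype PA1, and from 1.38 to 9.26 times in wildtype PA2. Col11a1, a minor chain that nucleates fibrils, rose by 1.05 and 1.17 in the wildtype arches and by 0.60 and 0.85 under the label, where the PA1 call (adjusted p = 0.04) was lost in each of 7 fits that left out a library. Of the 11 fibrillar genes 4 rose and 1 fell in wildtype PA1, 5 rose and none fell in wildtype PA2, 3 rose in PA1 under the label and 4 rose in PA2 under the label. Over all genes 42.5%, 36.9%, 31.2% and 30.9% were called in the same order, so the fibrillar shares were near the background. Col1a1 was not called in any of the 26 contrasts.

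Fibril-associated collagens rose mainly through Col9a1, a chain of collagen IX that sits on type II fibrils in cartilage. It read 75.7 to 89.5 CPM in the 5 wildtype PA1 libraries of E9.0 (median 81.7) and 241, 215 and 220 CPM at E10.5. In wildtype PA2 the values went from 32.5, 23.7, 43.4 and 42.4 CPM to 206, 310 and 226 CPM. The stages did not overlap in either arch, and the log2 changes were 1.43 ± 0.23 and 2.78 ± 0.24 (limma adjusted p = 1.1e-06 and 8e-14), with 1.59 and 2.66 under the label. Of the 8 genes of this group that were tested, 5 rose in wildtype PA1 (Col9a1, Col12a1, Col9a2, Col22a1 and Col19a1) and only Col9a1 rose in wildtype PA2. Under the label 2 rose in PA1, and in PA2 Col9a1 rose while Col12a1 and Col9a3 fell. Over all genes 42.5%, 36.9%, 31.2% and 30.9% were called in the same order.

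**Figure D2:**
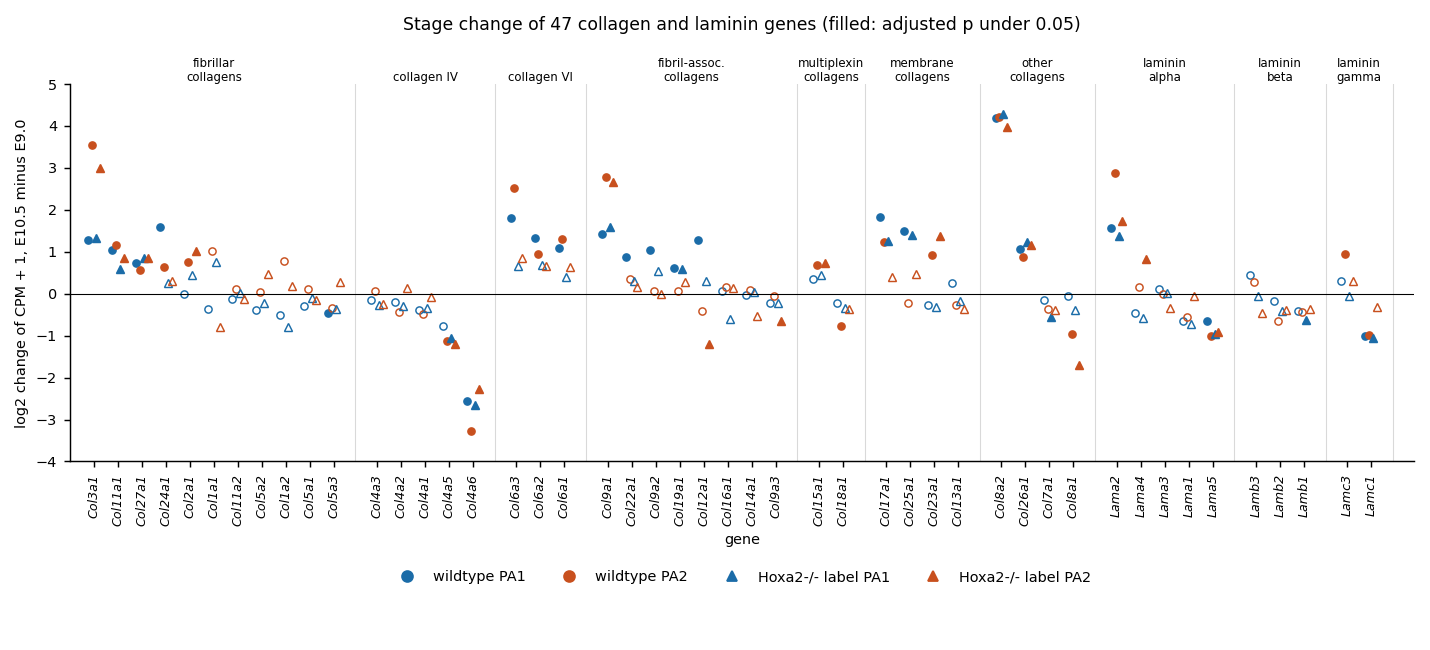
Log2 change of 47 of the 48 tested genes from E9.0 to E10.5, ordered by role, in the 4 combinations of arch and label, where filled points passed an adjusted p of 0.05. Points above 0 are higher at E10.5, led by Col8a2, and the lowest points belong to Col4a6.

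Collagen VI, a microfibrillar collagen of interstitial matrix made of 3 different chains, rose as a set in the wildtype arches. Mean Col6a3 went from 0.819 ± 0.954 CPM (SD, n = 5) to 5.21 ± 2.97 CPM (n = 3) in PA1 and from 0.269 ± 0.174 CPM (n = 4) to 6.88 ± 4.01 CPM (n = 3) in PA2. Mean Col6a1 went from 4.04 ± 0.83 to 9.71 ± 0.729 CPM in PA1 and from 3.41 ± 1.87 to 9.39 ± 2.29 CPM in PA2. All 3 genes passed in both wildtype arches by limma, with log2 changes of 1.10 to 1.80 in PA1 and 0.94 to 2.53 in PA2. In the same contrasts 42.5% and 36.9% of all genes were called. None of the 3 passed under the Hoxa2-/- label, where Col6a3 changed by 0.67 (adjusted p = 0.37) and 0.85 (adjusted p = 0.25) log2 units. Whether the change differs between the labels was not tested. The PA1 call of Col6a3 was lost without wildtype PA1 E10.5 replicate 2 (log2 change 1.45, adjusted p = 0.051), and the PA2 call of Col6a2 without wildtype PA2 E9.0 replicate 2 (0.71, adjusted p = 0.074) or E10.5 replicate 2 (0.86, adjusted p = 0.055).

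The collagen IV genes lie in head-to-head pairs in the mouse genome. Col4a5 (ENSMUSG00000031274) and Col4a6 (ENSMUSG00000031273) start 1308 bases apart on chromosome X, and their chains assemble together in basement membranes of epithelia and smooth muscle. Their RefSeq promoters (GRCm38.p6) are shown because these were the collagen IV genes that fell in 3 or more of the 4 contrasts: Col4a5 at chrX:141475169-141475384 on the plus strand and Col4a6 at chrX:141474077-141474326 on the minus strand, with capitals as above.
Col4a5: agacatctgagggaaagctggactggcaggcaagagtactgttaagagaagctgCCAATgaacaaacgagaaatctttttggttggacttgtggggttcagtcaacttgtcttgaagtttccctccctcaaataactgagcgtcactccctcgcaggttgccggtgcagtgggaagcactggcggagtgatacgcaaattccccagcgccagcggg
Col4a6: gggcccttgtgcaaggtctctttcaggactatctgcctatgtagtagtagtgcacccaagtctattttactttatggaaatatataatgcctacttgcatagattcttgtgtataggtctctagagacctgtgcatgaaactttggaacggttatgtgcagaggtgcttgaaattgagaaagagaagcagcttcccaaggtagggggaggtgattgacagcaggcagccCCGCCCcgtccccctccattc
Col4a5 held CCAAT 196 to 192 bases before its start, and its GGGCGG, 30 to 25 bases before the start, lies beyond the printed run. Col4a6 held GGGCGG on the opposite strand, 21 to 16 bases before its start.

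Col4a6 fell in all 4 contrasts. In wildtype PA1 it read 17.5, 20.2, 13.9, 17.7 and 19.2 CPM at E9.0, and the E10.5 libraries held 2.72, 1.53 and 2.39 CPM. In wildtype PA2 it dropped from 24.7, 15.2, 22.5 and 23.2 CPM to 1.35, 1.63 and 0.887 CPM. The libraries labelled Hoxa2-/- went from 21.9 to 24.4 CPM to 2.35 to 3.54 CPM in PA1, and in PA2 from a mean of 30 CPM to a mean of 4.79 CPM. No E10.5 library reached an E9.0 value of its own arch and label, and mean CPM at E9.0 was 7.99 and 16.6 times that at E10.5 in wildtype PA1 and PA2. The limma log2 changes were -2.55 ± 0.36 (adjusted p = 3.9e-08), -3.28 ± 0.37 (adjusted p = 2.4e-10), -2.65 and -2.27. The neighbouring Col4a5 fell less, from 20.5 to 40.4 CPM to 14.1 to 15 CPM in wildtype PA2 (-1.13 ± 0.35, adjusted p = 0.0086), and in wildtype PA1 its change of -0.76 missed the threshold (adjusted p = 0.064). The Col4a5 to Col4a6 ratio, per kb of exon, therefore moved from a median of 1.73 to 7.36 in wildtype PA1 and from 1.84 to 12.4 in wildtype PA2. The abundant pair Col4a1 and Col4a2, the ubiquitous basement membrane chains, did not pass in any stage contrast (Col4a1 log2 change -0.49 to -0.07).

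Among the laminin alpha chains, Lama2 rose and Lama5 fell in all 4 contrasts, and Lama1 and Lama3 were called in none of them. Lama4 was called only in PA2 under the label, where it was higher at E10.5. That call was lost without PA2 E9.0 replicate 3 (0.31, limma adjusted p = 0.23). Lama2, the alpha chain of muscle basement membranes, read 1.03 to 1.86 CPM in wildtype PA1 at E9.0 and 8.44, 6.01 and 4.22 CPM at E10.5, and in wildtype PA2 0.36, 1.02, 1.05 and 0.541 CPM and then 15.6, 10.1 and 9.7 CPM. All E10.5 libraries were above all E9.0 libraries, with limma log2 changes of 1.57 ± 0.28 and 2.87 ± 0.29 (adjusted p = 5.6e-06 and 8.5e-12) and of 1.37 and 1.73 under the label. Lama5, the main alpha chain under epithelia, fell from 35.3 to 56.2 CPM to 29.4, 24.6 and 34.5 CPM in wildtype PA1, and from 51.4, 48.6, 54.6 and 52.4 CPM to 24.3, 26.7 and 24.5 CPM in wildtype PA2. Its log2 changes were -0.64 (adjusted p = 0.0094), -1.01 (adjusted p = 0.00016), -0.97 and -0.91, and the wildtype PA1 call was lost without the E10.5 replicate 2 (-0.52, adjusted p = 0.079). Lamc1 fell from 137 to 156 CPM to 65.9 to 80.2 CPM in wildtype PA1 (SE of the log2 change 0.25, adjusted p = 0.00086) and from 108 to 157 CPM to 58.9 to 71.1 CPM in wildtype PA2 (-0.98 ± 0.26, adjusted p = 0.0023). Under the label Lamc1 fell in PA1 (-1.05), while the PA2 change of -0.31 did not pass (adjusted p = 0.39), and its E9.0 libraries were at 178, 143, 36.6 and 119 CPM, with replicate 3 lowest. Lamb1, the beta chain of most early laminins, passed only in PA1 under the label (-0.63, adjusted p = 0.0061). The per kb ratio of Lamb1 to Lamc1 went from a median of 0.9 to 1.37 in wildtype PA1 and from 0.906 to 1.33 in wildtype PA2. Under the label it went from 0.97 to 1.34 in PA1 and was 1.25 at both stages in PA2.

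Of the other genes, Col26a1, an EMI-domain collagen, rose in all 4 contrasts by 0.87 to 1.23 log2 units, from a mean of 45.6 to 95.1 CPM in wildtype PA1 and from 42.9 to 78.9 CPM in wildtype PA2. Col17a1, the hemidesmosome collagen of epithelium, was at 0 to 0.442 CPM in the wildtype E9.0 libraries, near the level of 3 reads, and at 3.65, 2.9 and 3.12 CPM in PA1 and 0.776, 2.11 and 1.61 CPM in PA2 at E10.5. It rose in 3 of the 4 contrasts (1.83, 1.23 and 1.25), and its change in PA2 under the label was 0.39 (adjusted p = 0.063).

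Cell type markers moved with stage as well. The summed level of 8 epithelial markers was 750 to 1121 CPM in wildtype PA1 at E9.0 and 481 to 563 CPM at E10.5, and 714 to 1084 CPM and then 398 to 447 CPM in wildtype PA2. The 8 endothelial markers went from 304 to 367 CPM to 170 to 196 CPM in wildtype PA1 and from 259 to 383 CPM to 183 to 198 CPM in wildtype PA2. The 8 markers of arch mesenchyme went the other way, from 588 to 674 CPM to 738 to 864 CPM in wildtype PA1 and from 370 to 447 CPM to 681 to 791 CPM in wildtype PA2. The part of these shifts in the collagen and laminin changes was not tested.

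Between the arches, most calls lay at E9.0 and E9.5, as did most calls over all genes, and the E10.5 groups held the fewest libraries. Under the label, fits restricted to the compared groups called the most members at E10.0. Col3a1, Col5a2, Col9a1 and Col23a1 were lower in PA2 at E9.0 under both labels, while Col8a1, Col9a2, Col12a1 and Col25a1 were higher in PA2 at E9.0 and E9.5 under both labels. The wildtype E9.5 call of Col8a1 was lost in 3 of 9 fits that left out a library. In wildtype PA2 at E9.0, 5 members were higher and 9 lower than in PA1, where 18.7% of all genes were called. At E9.5 all 15 called members were higher in wildtype PA2 (26.3% of all genes were called, with 12.7% of all genes higher), at E10.0 6 were higher and 2 lower (5.94% of all genes), and at E10.5 2 were lower (1.52% of all genes called, 0.651% lower). Under the Hoxa2-/- label 7 were higher and 6 lower at E9.0 (24.6% of all genes), 5 higher and 4 lower at E9.5 (9.58%), 4 higher at E10.0 (4.23%, with 3.13% higher) and 2 lower at E10.5 (1.37%, with 0.385% lower). With the embryo as a block the counts under the label were 15 at E9.5 and 7 at E10.0. The median log2 difference of members in wildtype was -0.18, 0.34, 0.25 and -0.13 in stage order, against -0.006, 0.006, -0.024 and -0.007 over all genes.

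At E9.0 the fibrillar group had 6 of 11 genes lower in wildtype PA2 and none higher, with a median of -0.61. Over all genes 18.7% were called in that contrast in either direction. Col3a1 was at 81.2, 37.9, 66.7 and 103 CPM in PA2, and all 5 PA1 libraries lay above that, at 243 CPM or more. The difference was -2.25 ± 0.38 on the log2 scale (limma adjusted p = 1.2e-05), and means were 72.2 ± 27.3 CPM (SD, n = 4) in PA2 and 345 ± 134 CPM (n = 5) in PA1. Col1a2, the second chain of type I collagen, read 77.7, 55.7, 58.8 and 59.1 CPM in PA2 against 168, 192, 185, 296 and 152 CPM in PA1 (-1.62 ± 0.31, adjusted p = 9.8e-05). Col5a2, a chain that sets fibril diameter, differed by -1.04, Col24a1 by -0.69, Col2a1 by -0.61 and Col11a1 by -0.55. The call of Col2a1 was lost without wildtype PA2 replicate 2, a library high in red cell markers (-0.44, adjusted p = 0.14). That of Col11a1 was lost in 6 of 9 fits that left out a library. Under the Hoxa2-/- label, where 24.6% of all genes were called at E9.0, 2 fibrillar genes were lower. These were Col3a1 (-1.51, limma adjusted p = 0.0037) and Col5a2 (-0.80), and the latter was lost without PA2 replicate 3 (-0.59, adjusted p = 0.072). At E9.5 under the label Col3a1 and Col1a2 were lower in PA2 (-1.28 and -1.10), but neither passed without PA1 replicate 3 (-0.82, adjusted p = 0.11, and -0.57, adjusted p = 0.1). By E10.5 Col3a1 no longer differed by the test, with a log2 difference of 0.00 in wildtype.

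**Figure D3:**
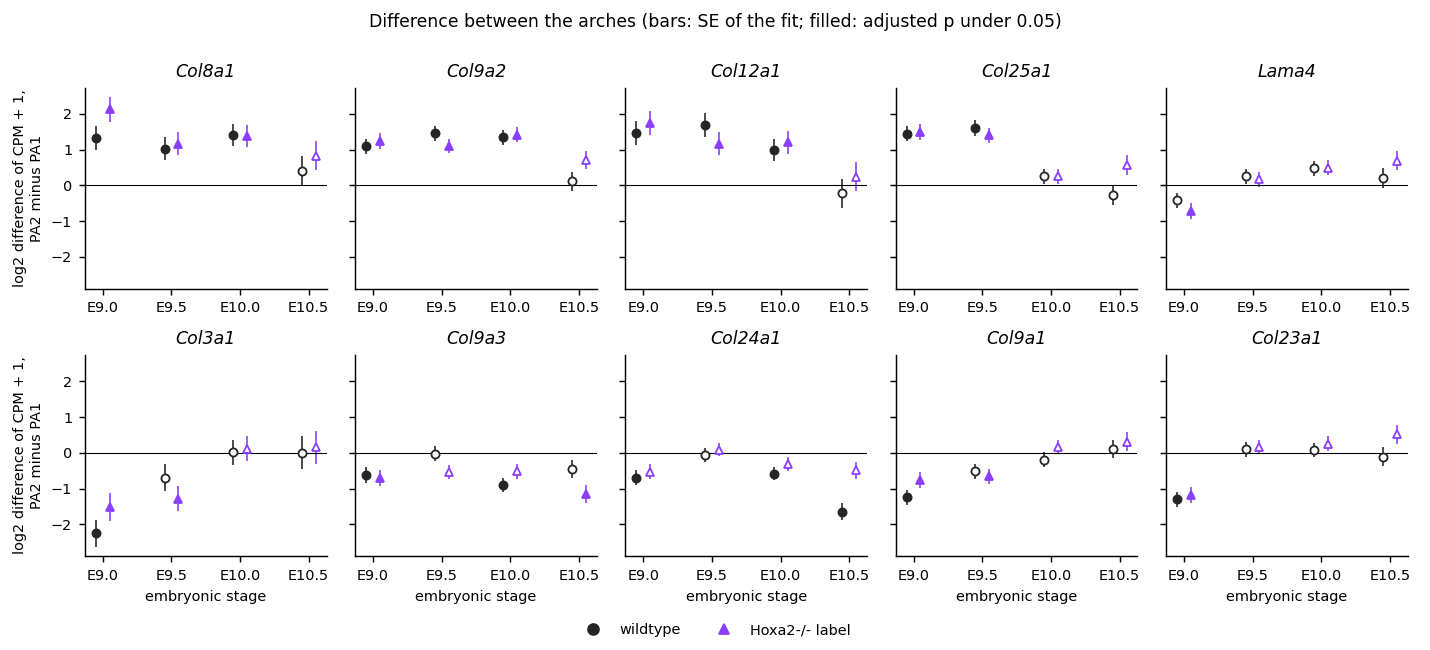
Log2 difference PA2 minus PA1 (points, with the standard error as bars) for 10 genes at 4 stages and under both labels. Col8a1, Col9a2, Col12a1 and Col25a1 lie above 0 at E9.0 and E9.5, and Col3a1, Col9a1 and Col23a1 lie lowest at E9.0, and at E10.5 they lie near 0 in wildtype and above 0 under the label (Col23a1 0.52, adjusted p = 0.47).

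Col9a1 followed Col3a1 at E9.0, with -1.24 ± 0.21 in wildtype (adjusted p = 1.8e-05) and -0.76 under the label (adjusted p = 0.0093). Its relatives in collagen IX did not move as 1 gene: Col9a3 was lower in PA2 in 4 of 8 contrasts (-0.62 at wildtype E9.0 and -1.14 at E10.5 under the label), and Col9a2 was higher in 6 of 8. Col9a2 read 12.3, 5.45, 11.5 and 9.15 CPM in wildtype PA2 at E9.0 and 4.7, 4.34, 3.28, 2.83 and 3.93 CPM in PA1, and at E10.0 11.4 to 16.3 CPM against 4.48 to 6.18 CPM. The arches did not overlap at either stage, and the log2 difference was 1.10 at E9.0 (limma adjusted p = 0.00011) and 1.34 at E10.0 (adjusted p = 1.5e-06). Col9a3 overlaps the gene Tcfl5 on the opposite strand, and whether reads were assigned by strand is not given in the sources used here.

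Col12a1, a fibril-associated collagen of tendon and fascia, read 14.2, 7.05, 9.71 and 8.17 CPM in wildtype PA2 at E9.0 and 4.13, 2.93, 1.49, 3.59 and 2.36 CPM in PA1. The arches did not overlap, and the log2 difference was 1.47 ± 0.33 (limma adjusted p = 0.00072), with 1.75 under the label. It passed in 6 of 8 contrasts, although the wildtype E10.0 call (0.99) was lost in 6 of 10 fits without a library. Col8a1 was at 6.39, 1.12, 7.06 and 2.27 CPM in wildtype PA2 at E9.0 and at 0.344 to 1.25 CPM in PA1, so that PA2 replicate 2 lay within the PA1 range. That library held 74780 CPM of summed red cell markers, against 3977 to 5800 CPM in the others of its group. Under the label the Col8a1 values in PA2 at E9.0, 10.2, 8.95, 3.03 and 7.2 CPM, were all above the PA1 range of 0.382 to 1.49 CPM (2.13 ± 0.35, adjusted p = 6.1e-06).

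The membrane-spanning collagens Col25a1 and Col23a1 differed between arches in opposite directions at E9.0. Col25a1, which is expressed by neurons and developing muscle, read 11.2, 14.7, 12.7 and 8.44 CPM in wildtype PA2 and 4.7, 4.5, 2.97, 2.28 and 3.93 CPM in PA1 (log2 difference 1.45 ± 0.22, limma adjusted p = 1.1e-06). Col23a1 read 55.4, 44.3, 44.5 and 50.2 CPM in wildtype PA2 and 117, 158, 107, 98.8 and 131 CPM in PA1 (-1.30 ± 0.21, adjusted p = 5e-06). Neither overlapped between the arches at that stage. Under the label the E9.0 differences were 1.50 and -1.18. At E9.5 Col25a1 stayed higher in PA2 (1.60 in wildtype, 1.40 under the label), and neither gene passed at E10.0 or E10.5.

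Lama4, an alpha chain of vessel basement membranes, was called lower in PA2 under the label at E9.0 (-0.71, adjusted p = 0.02). That rested on PA2 replicate 3, at 5.96 CPM against 26.8 to 29.8 CPM in the others, and without it the difference was -0.19 (adjusted p = 0.47). PA2 replicate 3 held 487 CPM of 10 summed yolk sac markers, against 4.76 to 21.5 CPM in the other 3. The call was also lost without label PA1 replicate 4 (-0.66, limma adjusted p = 0.054).

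At E9.5 in wildtype, the 15 members higher in PA2 included Lama5 (0.62), Lamb2 (0.99), Lamc1 (0.62), Col4a1 (0.74) and Col18a1 (0.62). In 9 fits that left out a library, the call of Lamc1 was lost in 6, that of Col18a1 in 5 (its value was 0.37 without PA1 replicate 3) and that of Lama5 in 2, while those of Lamb2 and Col4a1 were kept in all 9. The count of 15 was 9 without PA1 replicate 3 or without PA2 replicate 3, and 9 in a fit restricted to the pair of groups compared. At E10.0 in wildtype it was 5 without PA1 replicate 3, PA2 replicate 2 or PA2 replicate 5. At E10.5 the wildtype calls were Col24a1, a fibrillar collagen of developing bone, and Col17a1. Col24a1 was at 0.828, 1 and 0.832 CPM in PA2 and 5.5, 4.75 and 4.53 CPM in PA1 (-1.65 ± 0.24, limma adjusted p = 1.7e-06), without overlap, and Col17a1 was lost without PA2 replicate 1 (-0.57, adjusted p = 0.19). Under the label the E10.5 calls were Col9a3 and Col17a1, and the Col17a1 call was lost in 5 of 6 fits that left out a library.

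Markers of other tissues differed between the arches at the early stages. The summed level of 7 heart muscle markers was 64 to 1300 CPM in wildtype PA2 at E9.0 and 20.3 to 48.2 CPM in PA1, and 123 to 1127 CPM against 28.9 to 71.9 CPM under the label. The 64 CPM was in wildtype PA2 replicate 2, with the others of its group at 1187 CPM or more. The 123 CPM was in label PA2 replicate 3, with the others at 635 CPM or more. By E10.5 the heart muscle sum was 3.72 to 11.8 CPM over all groups. Arch mesenchyme markers summed to 370 to 447 CPM in wildtype PA2 at E9.0 and 588 to 674 CPM in PA1, and 7 markers of crest-derived glia and neurons to 147 to 266 CPM and 83.2 to 125 CPM. The part of these differences in the arch differences of collagens and laminins was not tested.

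The difference between E10.5 and E9.0 itself varied between the arches for a few members. In wildtype 4 of 48 passed this test, where 3.35% of all genes were called, and under the label 4 passed, where 7.33% were called. With the embryo as a block these counts were 8 and 7. Col3a1 rose more in PA2 in wildtype, by 2.24 log2 units (adjusted p = 0.019), and was not called without wildtype PA2 E10.5 replicate 2 (2.13, adjusted p = 0.057) or without the 7 libraries high in red cell or yolk sac markers (1.85, adjusted p = 0.09). Col9a1 rose more in PA2 by 1.35 in wildtype (adjusted p = 0.011) and 1.08 under the label (adjusted p = 0.044). The former was lost without wildtype PA2 E10.5 replicate 2 (1.17, adjusted p = 0.059) and the latter in 11 of 14 fits without a library.

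Col23a1 rose more in PA2 under both labels, by 1.19 (adjusted p = 0.026) and 1.69 (adjusted p = 0.00084), where PA2 moved from 44.3 to 55.4 CPM to 81.1 to 115 CPM in wildtype while PA1 stayed between 90.2 and 158 CPM. The wildtype call was lost in 5 of 15 fits without a library. Col25a1 rose in PA1 and not in PA2 in wildtype, from 2.28 to 4.7 CPM to 10.1, 13.3 and 12.6 CPM, whereas PA2 went from 8.44 to 14.7 CPM to 9.73, 13 and 7.21 CPM. The difference of changes was -1.73 (limma adjusted p = 0.00093). Under the label Lama4 (1.40, adjusted p = 0.011) included the PA2 E9.0 library at 5.96 CPM and was called in each of 14 fits that left out a library, with a value of 0.88 without that one, and Col17a1 (-0.87, adjusted p = 0.014) was under 2 CPM in every group compared.

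The label comparison asks how collagens and laminins differ when the embryo is marked Hoxa2-/-. At E10.0, where the libraries of both labels lie on a single side of the division described above, no member was called in PA1 (0% of all genes were called) or in PA2 (0.0814% of all genes), and edgeR on recovered reads also called none. Member differences in PA1 ran from -0.28 (Col6a1) to 0.35 (Col27a1) log2 units, and those in PA2 from -0.49 (Col6a3) to 0.66 (Lama1). At an unadjusted p under 0.05, 0 members stood out in PA1 and 2 in PA2, which were Col11a1 (0.54, adjusted p = 0.49) and Lama1 (0.66, adjusted p = 0.56). Lama1, the alpha chain of the earliest embryonic laminin, read 24.1, 25.3, 7.75, 22.4 and 25.7 CPM in wildtype PA2 and 27.6, 31.6, 31.9, 33.3 and 33.3 CPM under the label, so the groups did not overlap. Without wildtype PA2 replicate 3, at 7.75 CPM, the difference was 0.36 (adjusted p = 1). That library held 108 CPM of summed yolk sac markers, against 2.43 to 4.57 CPM in the others of its group. It also had the fewest recovered reads of all 68 libraries. The 95% intervals of the difference lay within 1 log2 unit of 0 for 47 of 48 members in PA1 and 44 in PA2. A missed threshold does not show that the labels are alike.

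**Figure D4:**
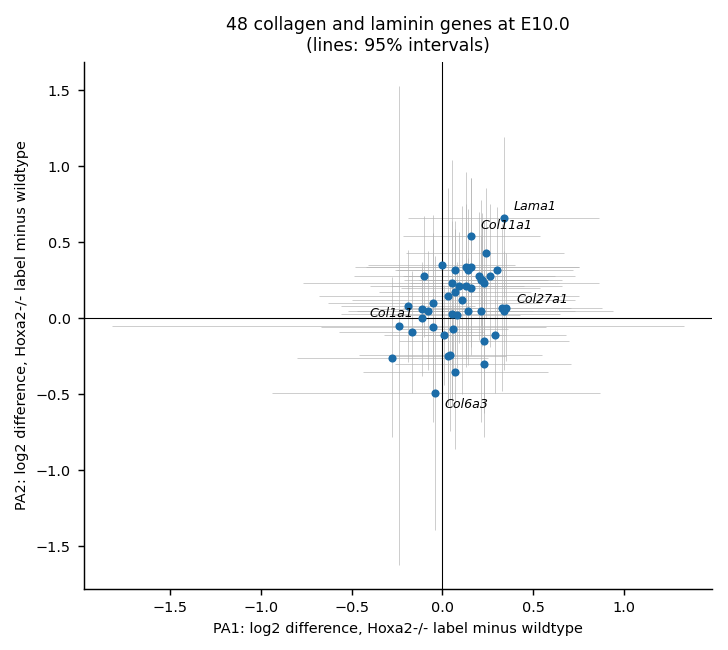
Label effect at E10.0, as log2 difference of Hoxa2-/- label minus wildtype, in PA1 (horizontal) against PA2 (vertical) for the 48 tested genes, with 95% intervals. All points lie between -0.49 and 0.66, and no member passed the test in either arch.

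At the other stages label and division cannot be told apart. In PA1 no member was called at E9.0 (2.08% of all genes, 1 member at an unadjusted p under 0.05, and 0 by edgeR), 11 were higher under the label at E9.5 (23.6%, with 11.4% higher) and 3 were lower at E10.5 (3.05%, with 1.55% lower). The E9.5 count was 2 without PA1 replicate 3 of the label, 4 without wildtype PA1 replicate 1, 3 without wildtype PA1 replicate 3, and 0 in a fit restricted to the pair of groups compared. In PA2 1 member was higher at E9.0 (Col11a2, where 14% of all genes were called and 6.59% called higher), 0 were called at E9.5 (4.48%, 4 members at an unadjusted p under 0.05) and 7 at E10.5 (10.3%). The E10.5 calls in PA2 were higher Col4a6 (1.32), Col4a2 (1.17), Col23a1 (0.91), Col25a1 (0.78) and Col5a3 (0.64) and lower Lama2 (-0.96) and Col17a1 (-0.63). Col5a3 was at 0, 0.0527 and 0.0554 CPM in wildtype, below the level of 3 reads, and at 0.61, 1.04 and 0.28 CPM under the label. The count of 7 fell to between 1 and 4 when a library was left out, and Col25a1 had an adjusted p of 0.052 with the embryo as a block. In PA1 at E10.5 Col12a1 (-1.61), Col24a1 (-1.21) and Col17a1 (-0.79) were lower, and the count was 1 without wildtype PA1 replicate 1 or label PA1 replicate 3. The label effect in PA2 minus that in PA1, which would be free of the division only if it acted alike in both arches (not tested), was not called for any member at any of the 4 stages (0%, 0.0109%, 0.0163% and 0.038% of all genes), with 4, 7, 0 and 3 members at an unadjusted p under 0.05 and 0 by edgeR.

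A single library dominated the type I collagens. In PA1 replicate 3 of the Hoxa2-/- label at E9.5, Col1a1 stood at 1822 CPM, against 8.28 to 28.6 CPM in the other 4 libraries of its group. Col1a2 stood at 1033 CPM there against 109 to 216 CPM, and Col3a1 at 2253 CPM against 383 to 511 CPM. Collagen VI and the Col4a5 and Col4a6 pair were also highest in it, with Col6a3 at 28.7 CPM against 0.0791 to 0.34 CPM and Col4a6 at 54.8 CPM against 6 to 15.8 CPM, while Col2a1 was low at 177 CPM against 281 to 307 CPM. In the same library epithelial markers summed to 1370 CPM, the highest of its group, as were the endothelial markers, and arch mesenchyme markers to 467 CPM, the lowest. In wildtype PA1 at E9.0, Col1a1 was at 347 CPM in replicate 4 and at 26, 10.1, 89.6 and 11.7 CPM in the others. The part of tissue composition in these values was not tested.

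**Figure D5:**
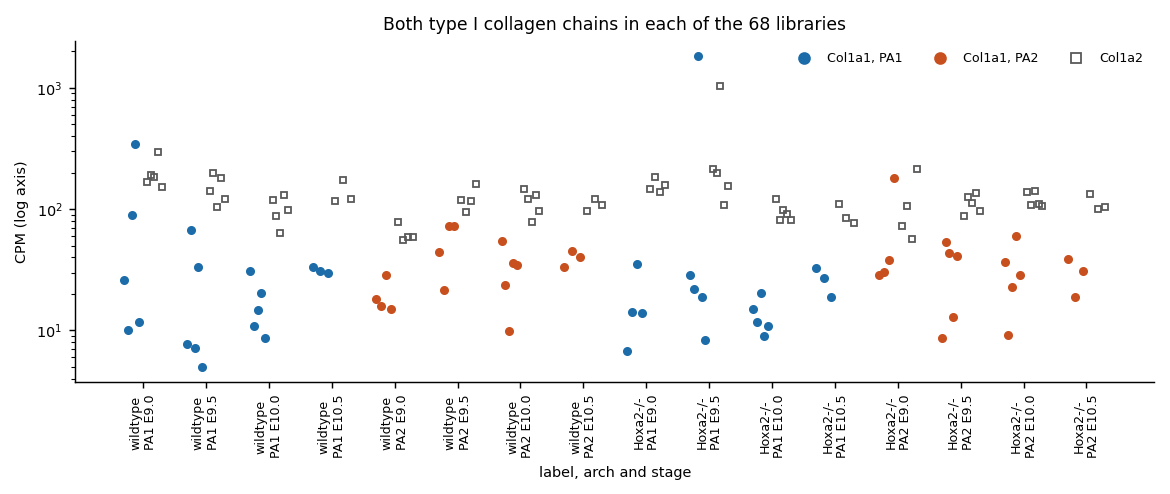
Level of Col1a1 and Col1a2 in each of the 68 libraries in CPM on a log axis, by group of label, arch and stage. The library at 1822 CPM of Col1a1 and 1033 CPM of Col1a2 is PA1 replicate 3 of the Hoxa2-/- label at E9.5.

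Genes that process, bind or anchor collagens and laminins were taken from lists set by role. Of 25 collagen processing genes tested, 5 rose and 9 fell in wildtype PA1 between E9.0 and E10.5, 5 rose and 8 fell in wildtype PA2, 3 rose and 10 fell in PA1 under the label and 4 rose and 9 fell in PA2 under the label, beside 42.5%, 36.9%, 31.2% and 30.9% of all genes called in either direction. Loxl2, a lysyl oxidase that crosslinks collagen, fell in all 4 (log2 -1.50, -1.97, -1.47 and -1.67), as did P3h2, a prolyl 3-hydroxylase of collagen IV (-1.94, -1.53, -1.44 and -0.89). Pcolce, which enhances procollagen cleavage, rose in all 4 (0.76, 1.49, 1.08 and 1.32). Of 12 receptors tested, 2 rose and 5 fell in wildtype PA1 and 2 rose and 7 fell in wildtype PA2, with 1 rising in each arch under the label and 5 and 6 falling, against the same 4 shares of all genes. Ddr2, a receptor kinase for fibrillar collagen, rose from a mean of 5.83 ± 1.52 CPM (SD, n = 4) to 82.4 ± 10.3 CPM (n = 3) in wildtype PA2, by 3.63 ± 0.36 log2 units (limma adjusted p = 3.4e-12), and by 2.07 in wildtype PA1. Ddr2 was lower in PA2 than PA1 at wildtype E9.0 (-1.79, adjusted p = 2.1e-05). The integrin alpha chains Itga3 and Itga6, which bind laminin, fell in all 4 stage contrasts (Itga3 -0.82, -1.53, -0.54 and -1.17).

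Of 17 basement membrane and fibril partners tested, 2 rose and 3 fell in wildtype PA1, 2 rose and 6 fell in wildtype PA2, 2 rose and 5 fell in PA1 under the label and 3 rose and 5 fell in PA2 under the label. In the same 4 contrasts 42.5%, 36.9%, 31.2% and 30.9% of all genes were called. The called share of these partners was below that of all genes in wildtype PA1. It was above that of all genes in wildtype PA2 and in both arches under the label. Fmod, a small proteoglycan of fibrils, and Ntn4, a laminin-binding netrin, rose in all 4, Fmod by 2.22, 1.71, 2.57 and 1.54. Nid2, which links laminin to collagen IV, fell by 1.54 and 1.23 in the wildtype arches and by 1.07 in PA1 under the label, and its change in PA2 under the label was -0.59 (adjusted p = 0.08). Tnc, an anti-adhesive glycoprotein, was at a mean of 102 ± 39.3 CPM (SD, n = 4) in wildtype PA2 at E9.0, higher than in PA1 by 2.33 log2 units (limma adjusted p = 0.00085), and fell to 8.32 ± 3.09 CPM (n = 3) by E10.5.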

How the data were processed

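Per the labels' protocols, hand-dissected arches were flash frozen, RNA was extracted with TRIzol, and polyadenylated RNA was copied with SMART-seq v4 for low input before Nextera XT library preparation. The submitters' processing notes name bcl2fastq 2.18, TopHat2 2.1.1, R 3.3.2 and the mm10 build. The counting program, the annotation and the strandedness are not given in the sources used here. Amplified reads carry no described identifiers and are not single molecules, and the 3-read floors cover counting error only.

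The authors deposited a single table of normalized signal values per gene and library. Column totals of 926298 to 1051959 are not equal, so the unit was recorded as signal, although the planned tests assumed CPM; the values are called CPM here. All deposited values (100%) came out as whole reads within 0.01 reads. Symbols, coordinates and exon lengths came from GENCODE M21 (GRCm38) by gene identifier, with 21932 matched, and promoters from RefSeq. Genes with at least 1 CPM in at least 3 libraries were kept (18428), and limma 3.58.1 (R 4.3.3) was fitted to log2(CPM + 1) with 16 group means and a trended prior variance, with two-sided tests in 26 contrasts and Benjamini-Hochberg adjustment. Levels per kb divide CPM by the merged length of all annotated exons of a gene. That length can exceed the length of a transcript, so ranks and ratios between genes depend on the annotation. The main limma fit and the edgeR test were checked on simulated data for a single contrast, PA2 against PA1 in wildtype E9.0. The other alternatives were not checked in this way.

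The members and lists were chosen with earlier results of these data known. Named with values are members called in the same direction in at least 3 stage contrasts (6 per direction) or 3 arch contrasts (6 per direction), members whose stage change differed between arches, label calls repeated at 2 or more stages, and the 5 collagens and 5 laminins of highest mean, each with at least 2 CPM (1 such gene is not reported here); for partner lists, up to 3 genes by the same order. Col1a1, Col1a2, Col5a2, Col11a1, Col6a1, Col6a2, Col6a3, Col4a2, Lama4 and others outside these were named after their values were seen.

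Arches with the same number come from the same embryo per the series text: deviations from group means correlated with a median of 0.347 in 33 such pairs (30 over 0.1) and -0.124 in 116 pairs with different numbers. The fit with embryo as a random block (consensus correlation 0.22) was an alternative. Replicates were biological per the series text, and among 116 replicate pairs chi-square per degree of freedom was 5.84 to 95.9. Other alternatives were a pseudocount of 0.25, no filter, median-of-ratios scaling (DESeq2 1.42.0 size factors), only the compared groups, edgeR 4.0.16 quasi-likelihood tests on recovered reads, leaving out each library, and leaving out 7 libraries high in yolk sac or red cell markers.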

Additional observations from a re-analysis of the deposited data

Results flagged for a closer look

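In groups of 4 or more libraries, 38 of 384 gene and group pairs (9.9%) held a library far from the others of its group. The pairs cover only the 32 genes named with values, some of them chosen after their values were seen. The share is therefore not that of all members and cannot be set against the 1 in 20 of normally distributed values. Low CPM values with zeros are also not of that kind. Values are in CPM. PA1 replicate 3 of the Hoxa2-/- label at E9.5 held 10 of these pairs. It was high in Col1a1 (1822), Col1a2 (1033), Col3a1 (2253), Col5a2 (291), Col4a5 (114), Col4a6 (54.8), Col6a3 (28.7), Col6a1 (24.9) and Col6a2 (11.7), and low in Col2a1 (177). Lamb3 (26.6), Col16a1 (19.2) and Lamc3 (13.2), which are outside the 32 genes, were also highest of their group in that library. PA2 replicate 4 of the label at E9.5 stood apart in Col9a1 (151), Col26a1 (91.3), Col8a2 (10.7) and Lama2 (4.31), all high, and in Lamb1 (156), low.

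Wildtype PA2 E10.0 replicate 3 was low in Col4a1 (154), Col4a2 (83.5), Lamb2 (25.9) and Lama1 (7.75), and replicate 2 of the same group was high in Col23a1 (191). Wildtype PA1 E9.0 replicate 4 was high in Col1a1 (347) and Col1a2 (296), and replicate 3 was low in Col18a1 (288). Wildtype PA2 E9.0 replicate 1 was high in Col1a2 (77.7) and replicate 2 in Col17a1 (0.16). That Col17a1 value is the level of 3 reads, with the other libraries of the group at 0. Wildtype PA2 E9.5 replicate 5 was high in Col3a1 (508) and Lama2 (3.78), and wildtype PA1 E9.5 replicate 2 in Col4a6 (17.4). Wildtype PA1 E10.0 replicate 1 was high in Lamb2 (47.9), and replicate 2 was low in Lama2 (1.26). Wildtype PA2 E10.0 replicate 3 and wildtype PA2 E9.0 replicate 2 were among the 7 libraries high in yolk sac or red cell markers. So were wildtype PA1 E9.0 replicates 3 and 4 and, below, PA2 E9.0 replicate 3 of the label.

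Under the label, PA2 E9.0 replicate 4 was high in Col1a1 (182) and Col6a3 (2.68), and replicate 3 low in Lama4 (5.96). PA1 E9.0 replicate 2 was high in Col9a2 (6.62), replicate 3 in Col17a1 (0.0996) and replicate 4 in Col6a3 (0.946). The Col17a1 value is the level of 1 read, with the other libraries of the group at 0. PA1 E9.5 replicate 4 was low in Col4a2 (104.6), and PA1 E10.0 replicate 2 high in Col17a1 (0.879).

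The difference of E10.5 from E9.0 varied between PA2 and PA1 by a tested interaction in 7 cases above 2 CPM: in wildtype Col3a1 (2.24), Col9a1 (1.35), Col23a1 (1.19) and Col25a1 (-1.73), and under the label Col23a1 (1.69), Lama4 (1.40) and Col9a1 (1.08), in log2 units of PA2 minus PA1.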

How the results depend on the processing

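Of 143 tests of named genes, none reversed direction under any alternative tried, and those no longer called numbered 35 in fits restricted to the compared groups, 12 with edgeR, 9 without the marker-high libraries, 8 with a pseudocount of 0.25, 3 with median-of-ratios scaling, 3 without a filter and 1 with the embryo block; leaving out single libraries lost 169 of 1196. Counts of members called that moved by over 1.5 times follow. In fits restricted to the compared groups, PA2 against PA1 gave 9 in wildtype E9.5 and, under the Hoxa2-/- label, 6, 4 and 13 at E9.0, E9.5 and E10.0; label against wildtype gave 0 and 5 in PA1 at E9.5 and E10.5 and 0 and 12 in PA2 at E9.0 and E10.5; the stage change gave 26 in PA1 under the label; and the arch difference of stage changes gave 8 in wildtype. The replicate block gave 15 and 7 for the arches under the label at E9.5 and E10.0, and 8 and 7 for the difference of stage changes in wildtype and under the label; it moved no other count by that much. A pseudocount of 0.25 gave 1 for the arches at E10.5 under either label and 4 for the label in PA2 at E10.5. With edgeR the same 3 counts were 1, 1 and 4, and the label gave 19 in PA1 at E9.5 and 3 in PA2 at E9.0. Without the marker-high libraries the label gave 2 in PA2 at E9.0. Leaving out single libraries gave ranges for the arches of 9 to 20 in wildtype E9.5, 5 to 8 at E10.0 and 1 to 2 at E10.5, and 1 to 2 under the label at E10.5. For the label the ranges were 2 to 16 and 1 to 3 in PA1 at E9.5 and E10.5, and in PA2 0 to 6 at E9.0, 0 to 1 at E9.5 and 1 to 4 at E10.5, where 6 came without PA2 E9.0 replicate 3 of the label. For the difference of stage changes they were 3 to 7 in wildtype and 2 to 5 under the label. The causes were not tested. Depth limits genes near the 3-read level of 0.14 to 0.328 CPM.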
